A study of Mus musculus with 18 samples.

Results

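Chst7 encodes a sulfotransferase that places sulfate on the sugar chains of chondroitin, a component of the proteoglycans that fibroblasts secrete and carry on their surface. The genes described here are the 46 genes, of 24514 in the count table, whose RNA was higher after siRNA against Chst7 (siChst7) than after control siRNA (siControl) at each of 3 days. They were chosen from these measurements. A member had a mean of at least 2 counts per 1000000 counts of the library (CPM) over all 18 libraries. Its siChst7 mean was at least 25% above its siControl mean at day 0, day 1 and day 3, and at each day its lowest siChst7 library was above its highest siControl library. The cells were the iMGT-Myh6-eGFP-MEF line of mouse embryonic fibroblasts, in which doxycycline switches on the cardiac transcription factors Mef2c, Gata4 and Tbx5 (MGT). The name of the line states a green fluorescent protein under Myh6, a cardiac muscle gene. On the day before day 0, siRNA was transfected into 1000 cells per well of 384-well plates. Day 0 cells of both arms had received siRNA and no doxycycline, and day 1 and day 3 cells of both arms had also received 1 µg/mL doxycycline from day 0 on. Each of the 6 groups had 3 biological replicates, each pooled from 40 wells. All libraries came from 1 line, and the labels do not say whether replicates were separate cultures over time. The p-values therefore measure the spread between these samples, estimated over all 6 groups together. The samples analysed here include no cells without doxycycline at day 1 or day 3, so induction of MGT, time in culture and time after transfection cannot be told apart.

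Several kinds of gene met these conditions. Chemokines such as Ccl7 and Cxcl10 recruit immune cells, and in fibroblasts their genes are known to be switched on through the transcription factors NF-kappa B and the interferon-activated factors. Matrix proteases such as Mmp3 cut proteins of the extracellular matrix, and AP-1 factors are known to act on the Mmp3 promoter. Haptoglobin and ceruloplasmin are plasma proteins of the acute-phase response, and the glutathione transferases conjugate reactive compounds to glutathione. Among the 46 genes, 43 were annotated as protein coding, 2 as long non-coding RNA and 1 as a small nucleolar RNA.

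The promoters of Cxcl10, Mmp3 and Casp4 are shown because the siChst7 differences of Cxcl10 and Casp4 varied between days, because Mmp3 is a secreted protease of the set, and because short motifs of the factors above could be searched in them. The windows run from 250 bases before to 50 bases after the RefSeq start of each gene (build GRCm38.p6), 5′ to 3′ on the strand of the gene, at chr5:92348840-92349139 (minus strand) for Cxcl10, chr9:7445572-7445871 (plus strand) for Mmp3 and chr9:5308599-5308898 (plus strand) for Casp4. Capitals mark every match, on either strand, to GAAANNGAA (the core of the interferon response element), GGGNNNTTC (kappa B) and TGANTCA (AP-1), where N is any base.
Cxcl10: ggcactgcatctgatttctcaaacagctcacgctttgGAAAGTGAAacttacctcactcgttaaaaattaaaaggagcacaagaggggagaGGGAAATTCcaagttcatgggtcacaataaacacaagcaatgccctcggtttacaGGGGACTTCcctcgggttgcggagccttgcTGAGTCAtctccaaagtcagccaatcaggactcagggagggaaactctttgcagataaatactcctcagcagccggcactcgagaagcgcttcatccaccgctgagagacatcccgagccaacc
Mmp3: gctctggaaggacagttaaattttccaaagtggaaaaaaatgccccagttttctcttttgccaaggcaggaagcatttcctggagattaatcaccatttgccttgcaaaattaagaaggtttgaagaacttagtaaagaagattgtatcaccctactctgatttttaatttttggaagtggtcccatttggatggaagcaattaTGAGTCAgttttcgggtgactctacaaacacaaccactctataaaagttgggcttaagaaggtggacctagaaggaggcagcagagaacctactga
Casp4: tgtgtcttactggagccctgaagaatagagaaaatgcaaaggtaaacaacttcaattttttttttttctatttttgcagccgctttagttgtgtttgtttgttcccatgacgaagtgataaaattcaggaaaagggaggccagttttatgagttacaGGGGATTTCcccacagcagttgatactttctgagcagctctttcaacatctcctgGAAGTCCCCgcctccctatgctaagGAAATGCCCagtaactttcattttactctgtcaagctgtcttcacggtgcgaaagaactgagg
The Cxcl10 window held 1 interferon response core starting 213 bases before the start, 2 kappa B matches starting 159 and 104 bases before it, and 1 AP-1 match starting 74 bases before it. The Mmp3 window held 1 AP-1 match, starting 46 bases before the start. The Casp4 window held 3 kappa B matches, starting 93, 38 and 13 bases before the start. No matches overlapped.

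RefSeq promoter windows were found for 33 of the 46 genes. The interferon response core lay in at least 1 window of 7 of these 33 (21.2%), which were Ccdc73, Cxcl10, Erap1, Gstt1, Hist1h2be, Postn and Serpinb9, against 9.76% of the 27025 genes with windows. The kappa B letters were found in 7 of the 33 (21.2%), which were Casp4, Ccdc73, Cd300lb, Cxcl10, Fgf10, Mgst1 and Tmed1, against 15.8% of all genes. AP-1 letters were found in 6 of the 33 (18.2%), among them Adcy7, Cp, Fam180a and Spint1 besides Cxcl10 and Mmp3, against 8.97% of all genes. The TATA box (TATAAA) was found in 8 of the 33 (24.2%), against 15.7% of all genes. Ifi47, whose siChst7 difference also varied between days, had a TATA box but no interferon response, kappa B or AP-1 match. Ccl7 was not among the genes with a match to any of these motifs. The counts are of matches of letters in short windows, given as a description.

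Chst7 itself had 0.240, 0.613 and 0.467 CPM with siChst7 at day 0, against 19.1, 18.0 and 18.4 CPM with siControl. At day 1 Chst7 had 0.917, 0.558 and 0.704 CPM with siChst7, against 39.0, 35.8 and 34.3 CPM with siControl. At day 3 Chst7 had 3.00, 2.00 and 1.67 CPM with siChst7, against 27.3, 25.6 and 27.7 CPM with siControl. The siRNA target was thus low in all 9 siChst7 libraries, and least so at day 3. Library totals lay between 30590742 and 50021142 counts. The day 3 siChst7 libraries stood apart in 3 measures. The 45S ribosomal RNA precursor Rn45s took 1.96% of the counts in siChst7 replicate 1 and 0.605% and 0.654% in replicates 2 and 3, against 0.399% to 0.542% with siControl at day 3. The rank correlation, taken over genes, between transcript length and the difference from day 3 siControl was -0.29 to -0.37 in these 3 libraries, against -0.08 to 0.05 among the day 3 siControl libraries. The chi-square of the counts of 2 replicates over genes, per degree of freedom, was 21.9 to 57.5 within day 3 siChst7, 3.66 to 15.2 within day 0 siChst7 and 3.42 to 5.36 within day 1 siChst7, against 2.93 to 4.65 within the siControl groups. Day 0 siChst7 replicate 3 had a length correlation of 0.30. The median length of the 46 genes was 2144 bases, against 3046 bases for the 11119 genes with a mean of at least 2 CPM. The part of transcript length and of Rn45s in the day 3 differences was not tested. Of 10 fibroblast markers, all had counts in every group except Thy1, which was at 0 in siChst7 cells at day 0. Their summed level was 7261 to 7746 CPM with siChst7 at day 0, against 7272 to 7550 CPM with siControl. Single markers in this sum differed both ways at day 0. Pdgfra averaged 126 CPM and Pdgfrb 200 CPM with siChst7, against 64.6 and 110 CPM with siControl. Vim, the largest part of the sum, averaged 3043 CPM with siChst7, against 3777 CPM with siControl. The fibroblast sum was 10674 to 10943 CPM with siChst7 at day 1, against 12217 to 12529 CPM with siControl, and 9520 to 10153 CPM with siChst7 at day 3, against 10776 to 11375 CPM with siControl. Markers of other cell types also differed at day 0. The sum of 9 smooth muscle markers was 630.2 to 685 CPM with siChst7, against 1530.4 to 1664 CPM with siControl. At day 3 that sum was 3794 to 4366 CPM with siChst7, against 3446 to 3543 CPM with siControl. The sum of 8 bone and cartilage markers at day 0 was 22.2 to 27.5 CPM with siChst7, against 10.2 to 12.5 CPM with siControl. Most of it was Sox9, which averaged 23.4 CPM with siChst7, against 10.9 CPM with siControl. The sum of 10 cardiomyocyte markers at day 0 was 23.0 to 23.9 CPM with siChst7, against 12.6 to 14.1 CPM with siControl. Of 9 tested at day 0, 1 was called higher and 2 lower. At day 3 that sum was 1128 to 1353 CPM with siChst7, against 925 to 983 CPM with siControl. Day 0 sums were also higher with siChst7 for endothelial markers and for adipocyte markers, where Fabp4 made up most. Day 0 sums of epithelial and neural markers overlapped. The part of these markers in the differences of the 46 genes was not tested.

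The rule's ratio and non-overlap conditions were met by 1106 genes at day 0 (9.95% of the 11119 genes), by 478 at day 1 (4.3%) and by 1489 at day 3 (13.4%). Of 82 genes at least 25% higher at all 3 days, 50 also had no overlap at any day. Spp1 and 3 genes known only by clone or model names were then left out, which gave the 46. Leaving out 1 library at a time gave 44 to 53 genes, of which 42 to 46 were shared with the 46, and 26 of the 46 were found in all 18 omissions. Without day 3 siChst7 replicates 1, 2 or 3 the rule found 44, 53 and 52 genes. The smallest of the 3 ratios lay just inside the threshold for Ccdc73 (1.2523), Adcy7 (1.253) and Neat1 (1.254), and just outside it for H2-T23 (1.249), Trp53inp1 (1.2485) and Bbs12 (1.2463).

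The ratios of siChst7 to siControl chose these genes and are given without a test. The median ratio of the 46 genes was 1.58 at day 0, 1.59 at day 1 and 1.63 at day 3, against 1.04, 1.00 and 0.956 for the genes with a mean of at least 2 CPM. A ratio of at least 2 was found for 5 genes at day 0, 10 at day 1 and 11 at day 3. For 18 genes the ratio was highest at day 0, for 13 at day 1 and for 15 at day 3. Together the 46 genes took 3729.6 to 3880.2 CPM with siChst7 at day 0, against 2365 to 2453 CPM with siControl. At day 3 they took 761 to 946 CPM with siChst7, against 512 to 527 CPM with siControl. Day 3 siChst7 replicate 2 was the lowest of its 3 libraries for 28 of the 46 genes and replicate 3 the highest for 25. In the edgeR fit over 13802 genes, 41 of the 46 passed an adjusted p below 0.05 as higher at day 0, 42 at day 1 and 44 at day 3, where 13.9%, 8.86% and 23.1% of all genes did. At day 0 Snord104, Postn, Cxcl10, Ifi47 and Ccdc73 did not pass. Gstt1, Ifi47, Fabp4 and Mgst1 did not pass at day 1, nor did Etv1 and Ccbe1 at day 3. Nothing is read from the counts that passed, since the rule used the same contrasts.

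**Figure D1:**
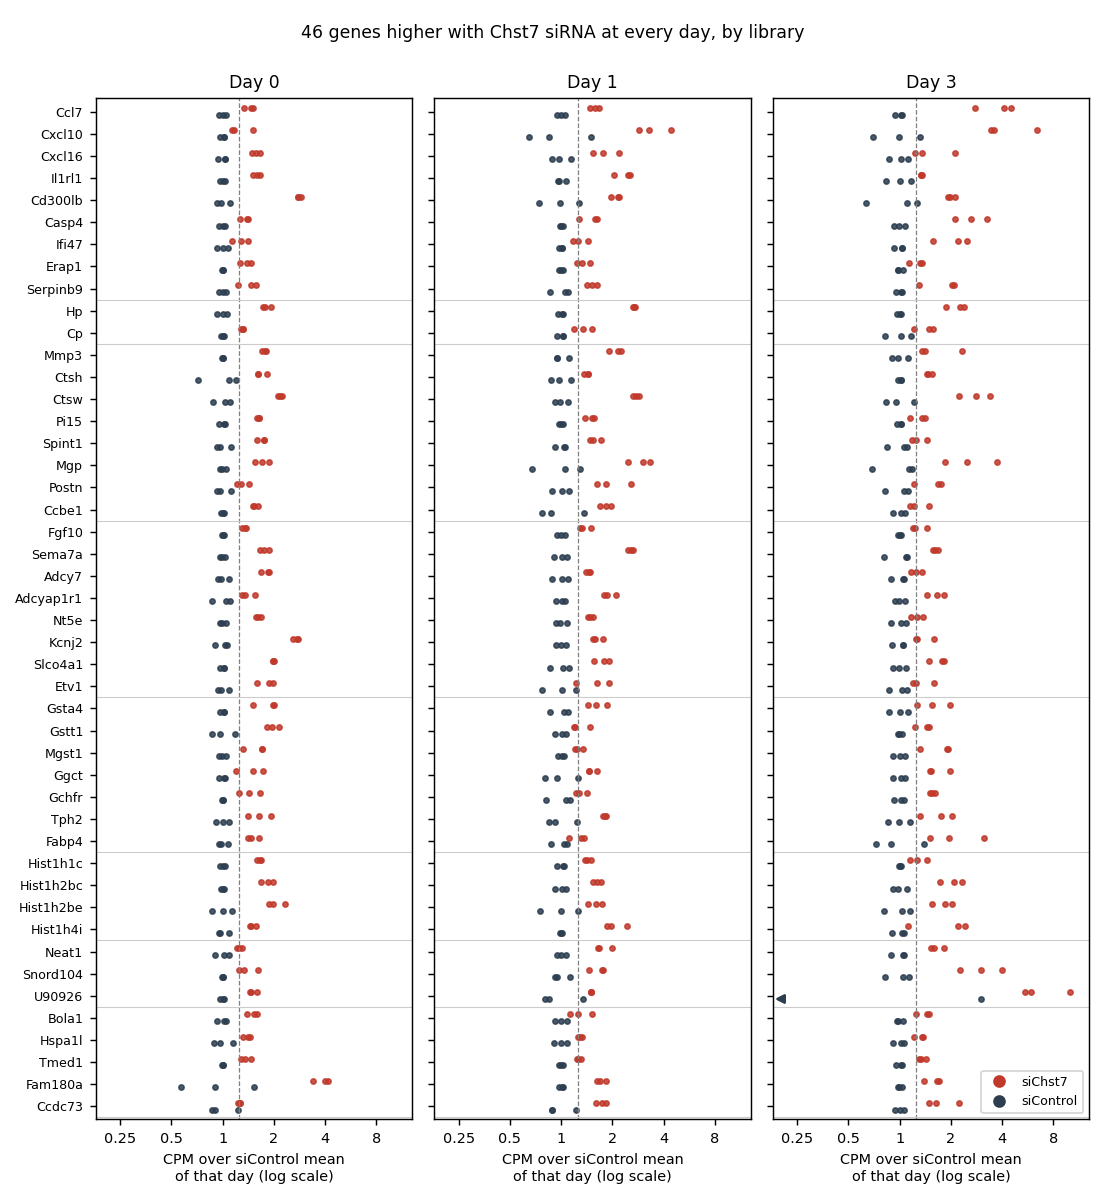
CPM of each of the 46 genes in every library, divided by the siControl mean of the same day (log axis), with siChst7 points drawn above siControl points in each row, grey lines between kinds of gene and a dashed line at the ratio the rule required. At each day the 3 siChst7 points of a gene lie to the right of its 3 siControl points, the median ratio is 1.58, 1.59 and 1.63 at days 0, 1 and 3, and arrowheads mark U90926 libraries at 0 counts.

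Chemokines and other genes of immune signalling made up 9 of the 46, with median ratios of 1.42 at day 0, 1.57 at day 1 and 1.99 at day 3. Cxcl10, a chemokine that attracts T cells and is induced by interferon, had 44.8, 43.6 and 57.6 CPM in the siChst7 libraries at day 0, against 39.1, 37.1 and 38.8 CPM in the siControl libraries. At day 1 Cxcl10 had 3.31, 2.88 and 4.45 CPM with siChst7, against 1.51, 0.857 and 0.651 CPM with siControl. At day 3 Cxcl10 had 3.24, 3.40 and 6.05 CPM with siChst7, against 0.664, 0.934 and 1.248 CPM with siControl. The groups do not overlap at any day, as the rule required, and the ratio was smallest at day 0, with 1.27 at day 0, 3.53 at day 1 and 4.46 at day 3. In the edgeR fit the day 0 difference was not called (log2 fold change 0.29, adjusted p = 0.165). The rule lost Cxcl10 without day 0 siChst7 replicate 3. Cxcl10 (chr5:92346638-92348889) overlaps Art3, which averaged 1.04 CPM over all libraries. Ccl7, a chemokine that attracts monocytes, had 347, 358 and 318 CPM in the siChst7 libraries at day 0, against 224, 249.8 and 238 CPM in the siControl libraries. At day 1 Ccl7 had 49.4, 46.5 and 52.4 CPM with siChst7, against 29.8, 31.4 and 33.3 CPM with siControl. At day 3 Ccl7 had 137, 93.7 and 151 CPM with siChst7, against 34.8, 31.8 and 34.4 CPM with siControl. In siChst7 cells Ccl7 was higher at day 3 than at day 1 in each library, while the siControl libraries of these days overlapped. Its ratios were 1.44 at day 0, 1.57 at day 1 and 3.78 at day 3. Casp4, the inflammatory caspase that senses bacterial lipopolysaccharide inside cells, had 48.5, 47.6 and 43.3 CPM in the siChst7 libraries at day 0, against 34.8, 35.7 and 32.9 CPM in the siControl libraries. At day 1 Casp4 had 11.1, 13.8 and 14.0 CPM with siChst7, against 8.53, 8.84 and 8.60 CPM with siControl. At day 3 Casp4 had 20.5, 16.7 and 25.6 CPM with siChst7, against 7.82, 8.47 and 7.29 CPM with siControl. Casp4 had ratios of 1.35 at day 0, 1.496 at day 1 and 2.66 at day 3, with the siChst7 libraries spread more widely at day 3 than at the other days.

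Il1rl1, the receptor of interleukin 33, had 705, 740.0 and 669 CPM in the siChst7 libraries at day 0, against 428, 460.0 and 451 CPM in the siControl libraries. At day 1 Il1rl1 had 19.9, 19.4 and 16.1 CPM with siChst7, against 8.36, 7.63 and 7.50 CPM with siControl. At day 3 Il1rl1 had 8.27, 8.40 and 8.24 CPM with siChst7, against 5.19, 7.22 and 6.22 CPM with siControl. The Il1rl1 difference at day 3 was small beside the level at day 0, and the ratios were 1.58 at day 0, 2.36 at day 1 and 1.34 at day 3. Cd300lb, an activating receptor known from myeloid cells, had 23.6, 22.6 and 22.6 CPM in the siChst7 libraries at day 0, against 7.97, 8.97 and 7.56 CPM in the siControl libraries. At day 1 Cd300lb had 2.14, 2.34 and 2.39 CPM with siChst7, against 1.07, 0.801 and 1.39 CPM with siControl. At day 3 Cd300lb had 2.36, 2.41 and 2.58 CPM with siChst7, against 1.36, 1.55 and 0.783 CPM with siControl. Cd300lb was well separated at day 0 and low later, with ratios of 2.81 at day 0, 2.11 at day 1 and 1.99 at day 3. Ifi47, an interferon-inducible GTPase, had 6.38, 5.18 and 5.81 CPM in the siChst7 libraries at day 0, against 4.88, 4.19 and 4.58 CPM in the siControl libraries. At day 1 Ifi47 had 2.88, 3.08 and 3.55 CPM with siChst7, against 2.50, 2.40 and 2.49 CPM with siControl. At day 3 Ifi47 had 13.0, 8.21 and 11.5 CPM with siChst7, against 5.37, 4.85 and 5.41 CPM with siControl. Only at day 3 did the Ifi47 ratio pass 2, at 2.09, against 1.27 at day 0 and 1.29 at day 1. The membrane-bound chemokine Cxcl16 had ratios of 1.58 at day 0, 1.82 at day 1 and 1.56 at day 3. Serpinb9, an inhibitor of granzyme B, had ratios of 1.42 at day 0, 1.52 at day 1 and 1.79 at day 3. Erap1, which trims peptides for presentation on class I molecules, had ratios of 1.37 at day 0, 1.35 at day 1 and 1.26 at day 3. Erap1 overlaps Cast, whose own ratios were 1.04, 0.948 and 0.898, and Serpinb9 and Ifi47 belong to families of similar genes whose reads may be shared.

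Markers of macrophages and other leukocytes were low, and their summed level was higher with siChst7 at days 0 and 1. The summed level of the 9 listed markers was 62.3 to 66.5 CPM with siChst7 at day 0, against 47.4 to 52.1 CPM with siControl. At day 1 the sum was 23.3 to 24.8 CPM with siChst7, against 18.2 to 20.6 CPM with siControl, and at day 3 it was 28.3 to 30.9 CPM with siChst7, against 30.1 to 32.1 CPM with siControl. Of the 6 markers tested, 1 was called higher at day 0 and 3 at day 1, where 13.9% and 8.86% of all genes were. The defining markers Adgre1 and Tyrobp were at 0 counts in most groups, and Ptprc averaged 0.0156, 0.0233 and 0.0403 CPM with siChst7 at days 0, 1 and 3, against 0.0668, 0.0189 and 0.0245 CPM with siControl. Most of the sum at day 0 came from Cd14, which averaged 35.1 CPM with siChst7, against 22.9 CPM with siControl, and Cd68, which averaged 20.6 CPM with siChst7, against 17.4 CPM with siControl. The part of such cells in the levels of the immune genes was not tested. In bulk libraries more cells of a type and more RNA per cell cannot be told apart.

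Genes of the chemokine and inflammatory list were called higher more often than lower. This list and the interferon response list were chosen with earlier results of these data known, so their shares are not independent of the data. Of 31 tested genes, which include the 4 members Ccl7, Cxcl10, Cxcl16 and Il1rl1 that the rule made higher, 14 were called higher and 2 lower at day 0, 17 higher and 2 lower at day 1, and 19 higher and 1 lower at day 3. Over all genes 13.9%, 8.86% and 23.1% were called higher and 13.5%, 8.72% and 21.6% lower. With scaling by library totals, 69.4% of all day 0 calls were higher, where 50.6% were with the main scaling, and at day 3 42% were, where 51.6% were. The list's median log2 fold change was 0.17, 0.56 and 0.61, against 0.01 over all genes at each day. Ccl2, a monocyte chemokine related to Ccl7, was higher at day 3 by a log2 fold change of 2.03 ± 0.13 (SE, adjusted p = 4.79e-10). Ptgs2, the inducible cyclooxygenase, was higher at day 1 by 0.66 ± 0.06 (SE, adjusted p = 5.08e-08) and at day 3 by 0.90 ± 0.06 (SE, adjusted p = 2.3e-09) on the log2 scale. Among the genes of the list outside the 46, those with the lowest p-values at day 0 were Ptgs1, higher by 0.52 ± 0.03 (SE, adjusted p = 2.02e-10), and Vcam1, higher by 0.49 ± 0.06 (SE, adjusted p = 5.97e-07). The interferon response list, which holds none of the 46, had 2 genes called higher and 4 lower of 36 at day 0, 25 called higher at day 1, and 29 higher and 1 lower at day 3, with medians of -0.07, 0.40 and 0.82.

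Both plasma proteins of the acute-phase response were higher with siChst7 while their level declined over the days. Hp, which encodes haptoglobin, the protein that binds free hemoglobin, had 118, 106 and 109 CPM in the siChst7 libraries at day 0, against 61.8, 57.3 and 65.4 CPM in the siControl libraries. At day 1 Hp had 59.8, 59.5 and 60.3 CPM with siChst7, against 21.3, 22.7 and 23.1 CPM with siControl. At day 3 Hp had 18.2, 14.3 and 17.2 CPM with siChst7, against 7.70, 7.81 and 7.39 CPM with siControl. The Hp libraries were tight at day 1, and the ratios were 1.80 at day 0, 2.67 at day 1 and 2.17 at day 3. Cp, which encodes the copper-carrying oxidase ceruloplasmin, averaged 119.8 ± 2.07 CPM with siChst7 at day 0, against 92.1 ± 2.18 CPM with siControl (SD, n = 3 each). Its ratios were 1.30 at day 0, 1.35 at day 1 and 1.42 at day 3. Cp overlaps Hps3, whose own ratios were 1.11, 1.14 and 0.947.

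Matrix genes, proteases and their inhibitors made up 8 of the 46, with median ratios of 1.69, 1.91 and 1.51 at days 0, 1 and 3. Mmp3, the matrix metalloproteinase stromelysin, had 911, 902 and 871 CPM in the siChst7 libraries at day 0, against 512, 505 and 514 CPM in the siControl libraries. At day 1 Mmp3 had 41.7, 43.0 and 36.8 CPM with siChst7, against 21.2, 18.2 and 18.1 CPM with siControl. At day 3 Mmp3 had 0.854, 0.893 and 1.47 CPM with siChst7, against 0.573, 0.615 and 0.710 CPM with siControl. Mmp3 (chr9:7445822-7455975) had only 75 counts in all in the 3 day 3 siControl libraries, and its ratios were 1.75 at day 0, 2.11 at day 1 and 1.70 at day 3. Ctsw, a cysteine cathepsin known from cytotoxic lymphocytes, had 8.34, 8.54 and 8.13 CPM in the siChst7 libraries at day 0, against 3.36, 3.96 and 4.22 CPM in the siControl libraries. At day 1 Ctsw had 5.35, 5.13 and 5.59 CPM with siChst7, against 1.80, 1.91 and 2.12 CPM with siControl. At day 3 Ctsw had 11.2, 8.86 and 13.6 CPM with siChst7, against 4.86, 3.33 and 3.79 CPM with siControl. The siChst7 level of Ctsw was above that of siControl by more than 2-fold at every day, with ratios of 2.17 at day 0, 2.76 at day 1 and 2.81 at day 3. Ctsw (chr19:5465043-5468628) overlaps Fibp, which was more abundant at 17.7 CPM and had ratios of 1.15, 0.916 and 1.00. Mgp, matrix Gla protein, an inhibitor of calcification, had 26.9, 29.3 and 24.4 CPM in the siChst7 libraries at day 0, against 15.3, 15.5 and 16.4 CPM in the siControl libraries. At day 1 Mgp had 1.55, 1.92 and 2.11 CPM with siChst7, against 0.812, 0.663 and 0.425 CPM with siControl. At day 3 Mgp had 3.45, 1.71 and 2.29 CPM with siChst7, against 1.09, 1.05 and 0.636 CPM with siControl. Mgp was near 1 CPM in siControl cells at days 1 and 3, and its ratios were 1.71 at day 0, 2.94 at day 1 and 2.69 at day 3.

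Postn, the matricellular protein periostin, averaged 11.3 ± 2.82 CPM with siChst7 at day 1, against 5.64 ± 0.633 CPM with siControl (SD, n = 3 each), and its ratios were 1.31 at day 0, 2.00 at day 1 and 1.54 at day 3. Pi15, a secreted protease inhibitor, was abundant throughout, with 361 ± 6.46 CPM with siChst7 at day 0, against 223 ± 8.44 CPM with siControl (SD, n = 3 each), and ratios of 1.62 at day 0, 1.48 at day 1 and 1.31 at day 3. Ccbe1, a secreted protein needed for lymphatic vessel growth, had ratios of 1.55 at day 0, 1.82 at day 1 and 1.28 at day 3. Ctsh, a lysosomal cysteine protease, had ratios of 1.69 at day 0, 1.41 at day 1 and 1.48 at day 3. Spint1, a membrane inhibitor of serine proteases, had ratios of 1.70 at day 0, 1.58 at day 1 and 1.30 at day 3. Calls in the lists around these genes went in both directions. Over all genes 13.9%, 8.86% and 23.1% were called higher and 13.5%, 8.72% and 21.6% lower at days 0, 1 and 3. The lists include the members Mmp3 and Postn, which the rule made higher. In the list of metalloproteinases and secreted proteases, which holds Mmp3, 9 of 31 genes were called higher and 8 lower at day 0, 8 higher and 3 lower at day 1, and 6 higher and 13 lower at day 3. The collagenase Mmp13 was higher at day 0 by a log2 fold change of 0.82 ± 0.08 (SE, adjusted p = 5.45e-08). The aggrecanase Adamts5 was lower at day 0, at -1.09 ± 0.04 (SE, adjusted p = 7.92e-14). In the myofibroblast list, which holds Postn, 4 of 24 genes were called higher and 10 lower at day 0, 5 and 6 at day 1, and 8 and 7 at day 3.

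Genes of signalling and transport numbered 8, and their median ratio was 1.78 at day 0, 1.60 at day 1 and 1.36 at day 3. For 5 of these 8 the ratio was highest at day 0. Kcnj2, an inward rectifier potassium channel of heart muscle and other cells, had 57.2, 57.8 and 54.7 CPM in the siChst7 libraries at day 0, against 18.9, 21.7 and 22.4 CPM in the siControl libraries. At day 1 Kcnj2 had 9.78, 11.2 and 10.0 CPM with siChst7, against 5.92, 6.38 and 6.82 CPM with siControl. At day 3 Kcnj2 had 12.0, 9.65 and 9.45 CPM with siChst7, against 6.85, 7.95 and 8.00 CPM with siControl. The Kcnj2 groups were furthest apart at day 0, and the ratios were 2.69 at day 0, 1.62 at day 1 and 1.36 at day 3. Sema7a, a membrane-anchored semaphorin, had 52.4, 49.5 and 55.8 CPM in the siChst7 libraries at day 0, against 31.0, 29.7 and 28.8 CPM in the siControl libraries. At day 1 Sema7a had 16.4, 16.8 and 15.8 CPM with siChst7, against 6.93, 5.83 and 6.48 CPM with siControl. At day 3 Sema7a had 6.83, 7.36 and 7.09 CPM with siChst7, against 4.80, 3.53 and 4.80 CPM with siControl. Sema7a differed most at day 1, with ratios of 1.76 at day 0, 2.55 at day 1 and 1.62 at day 3. Slco4a1, an organic anion transporter, averaged 81.0 ± 0.741 CPM with siChst7 at day 0, against 41.0 ± 1.07 CPM with siControl (SD, n = 3 each), with ratios of 1.98 at day 0, 1.75 at day 1 and 1.68 at day 3. Fgf10, a growth factor that mesenchyme sends to epithelium, had ratios of 1.34 at day 0, 1.37 at day 1 and 1.30 at day 3. Etv1, a transcription factor of the ETS family, had ratios of 1.82 at day 0, 1.59 at day 1 and 1.35 at day 3. Nt5e, the enzyme that makes adenosine outside the cell, had ratios of 1.62 at day 0, 1.48 at day 1 and 1.26 at day 3. The receptor Adcyap1r1, which binds the neuropeptide PACAP, had ratios of 1.40 at day 0, 1.91 at day 1 and 1.65 at day 3. Adcy7, an adenylyl cyclase that overlaps Brd7, had ratios of 1.80 at day 0, 1.44 at day 1 and 1.253 at day 3.

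The lists around these genes had calls in both directions, and several shares lay near those over all genes, which were 13.9%, 8.86% and 23.1% called higher and 13.5%, 8.72% and 21.6% called lower at days 0, 1 and 3. Among secreted growth factors and cytokines, with Fgf10, 6 of 38 genes were called higher and 8 lower at day 0, 13 and 5 at day 1, and 12 and 8 at day 3. Among ERK feedback and immediate early genes, with Etv1, 5 of 29 were called higher and 10 lower at day 0, 12 and 2 at day 1, and 3 and 6 at day 3. Among adhesion and guidance genes, with Sema7a, 13 of 36 were called higher and 13 lower at day 0, 8 and 7 at day 1, and 2 and 12 at day 3. Among cardiac ion and calcium handling genes, with Kcnj2, 2 of 17 were called higher and 1 lower at day 0, 2 and 3 at day 1, and 3 and 5 at day 3.

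Glutathione enzymes and other genes of metabolism made up 7 of the 46, with median ratios of 1.58, 1.31 and 1.66 at days 0, 1 and 3. Gsta4, a glutathione transferase for products of lipid peroxidation, averaged 29.4 ± 4.50 CPM with siChst7 at day 0, against 16.1 ± 0.561 CPM with siControl (SD, n = 3 each). Its ratios were 1.83 at day 0, 1.63 at day 1 and 1.60 at day 3. Mgst1, a membrane-bound glutathione transferase, averaged 45.1 ± 8.96 CPM with siChst7 at day 3, against 26.3 ± 2.05 CPM with siControl (SD, n = 3 each), and had ratios of 1.58 at day 0, 1.26 at day 1 and 1.72 at day 3. Gstt1, a transferase of the theta class, had ratios of 1.97 at day 0, 1.30 at day 1 and 1.39 at day 3. Ggct, which acts in the breakdown of glutathione, had ratios of 1.48 at day 0, 1.51 at day 1 and 1.66 at day 3. Fabp4, a fatty acid carrier best known from adipocytes, had ratios of 1.503 at day 0, 1.26 at day 1 and 2.19 at day 3. Gchfr, the feedback protein of the first enzyme of biopterin synthesis, had ratios of 1.44 at day 0, 1.31 at day 1 and 1.56 at day 3. Tph2, a tryptophan hydroxylase known from neurons, had ratios of 1.66 at day 0, 1.80 at day 1 and 1.70 at day 3. Over all genes 13.9%, 8.86% and 23.1% were called higher and 13.5%, 8.72% and 21.6% lower at days 0, 1 and 3. In the NRF2 and glutathione list, which holds Gsta4 and Mgst1, 10 of 25 genes were called higher and 2 lower at day 0, 2 higher and 5 lower at day 1, and 5 higher and 8 lower at day 3. The rule made both members higher, and Gsta4 was among those called higher at day 1. Nqo1, a quinone reductase and standard NRF2 target, was higher at day 0 by a log2 fold change of 0.57 ± 0.09 (SE, adjusted p = 2.46e-05). Gclm, a subunit of the enzyme that starts glutathione synthesis, was lower at day 0, at -0.54 ± 0.06 (SE, adjusted p = 1.34e-07). The adipogenesis list, which holds Fabp4, had 6 of 12 genes called higher and 2 lower at day 0, 4 and 2 at day 1, and 3 and 3 at day 3. In the list of fatty acid uptake, storage and oxidation, also with Fabp4, these counts were 12 and 2 of 28 at day 0, 5 and 3 at day 1, and 8 and 10 at day 3.

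Histone genes made up 4 of the 46. Hist1h2bc, a histone H2B gene, had 25.5, 24.0 and 21.7 CPM in the siChst7 libraries at day 0, against 12.6, 13.2 and 13.0 CPM in the siControl libraries. At day 1 Hist1h2bc had 13.2, 11.9 and 12.5 CPM with siChst7, against 8.30, 7.82 and 7.08 CPM with siControl. At day 3 Hist1h2bc had 22.1, 18.2 and 24.6 CPM with siChst7, against 11.7, 10.5 and 9.72 CPM with siControl. The 3 groups of siChst7 libraries lay above their siControl groups by ratios of 1.83 at day 0, 1.62 at day 1 and 2.04 at day 3. Hist1h2be, another H2B gene, had ratios of 2.06 at day 0, 1.59 at day 1 and 1.81 at day 3. The H4 gene Hist1h4i had ratios of 1.49 at day 0, 2.08 at day 1 and 1.92 at day 3. Hist1h1c, a linker histone gene, had ratios of 1.64 at day 0, 1.43 at day 1 and 1.28 at day 3. Hist1h2be, Hist1h2bc and Hist1h1c lie near each other on chromosome 13, with 63.1 kb and 46.3 kb between them. Genes of 1 histone type are similar in sequence, and transcripts without a poly(A) tail are poorly captured by the poly(A) selection that the labels give, so the single genes are uncertain.

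Among the non-coding RNAs Neat1, the long RNA that builds paraspeckles in the nucleus, had 158, 151 and 146 CPM in the siChst7 libraries at day 0, against 122, 131 and 109 CPM in the siControl libraries. At day 1 Neat1 had 185, 153 and 155 CPM with siChst7, against 92.5, 87.7 and 99.6 CPM with siControl. At day 3 Neat1 had 84.6, 81.8 and 97.3 CPM with siChst7, against 55.8, 56.7 and 47.6 CPM with siControl. Neat1 differed least at day 0, with ratios of 1.254 at day 0, 1.76 at day 1 and 1.65 at day 3. U90926, a long non-coding RNA, had 24.1, 24.6 and 26.7 CPM in the siChst7 libraries at day 0, against 16.9, 17.1 and 16.2 CPM in the siControl libraries. At day 1 U90926 had 1.99, 2.01 and 1.99 CPM with siChst7, against 1.07, 1.80 and 1.13 CPM with siControl. At day 3 U90926 had 0.177, 0.193 and 0.327 CPM with siChst7, against 0, 0 and 0.0979 CPM with siControl. At day 3 U90926 had 24 counts in all with siChst7 and 4 with siControl, a ratio of 6.67 over pooled counts with an exact 95% interval of 2.29 to 26.5 for counting error alone. Snord104, a small nucleolar RNA, had 6.10, 5.07 and 4.76 CPM in the siChst7 libraries at day 0, against 3.83, 3.81 and 3.77 CPM in the siControl libraries. At day 1 Snord104 had 6.17, 6.09 and 5.11 CPM with siChst7, against 3.97, 3.23 and 3.31 CPM with siControl. At day 3 Snord104 had 8.98, 6.78 and 11.9 CPM with siChst7, against 3.11, 2.46 and 3.40 CPM with siControl. Snord104 had ratios of 1.40 at day 0, 1.65 at day 1 and 3.08 at day 3. It is 73 bases long and overlaps Gm36220, so its level in poly(A) libraries is uncertain. U90926 lies 131 kb from Cxcl10 on chromosome 5. In the list of RNA quality genes, which holds Neat1, Hist1h1c and Hist1h2bc, 3 of 9 were called higher at day 0, 3 at day 1 and 8 at day 3. At days 0 and 1 the 3 were these members, which the rule made higher. The 8 at day 3 also include Malat1, Rn45s and Rpph1. Over all genes 13.9%, 8.86% and 23.1% were called higher at days 0, 1 and 3. The summed level of the list at day 3 was 6689 to 20305 CPM with siChst7, against 4486 to 5827 CPM with siControl. The part of RNA quality in the day 3 levels of these RNAs was not tested.

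Among the remaining 5 genes Fam180a, a secreted protein of little known function, had 1.90, 1.61 and 1.96 CPM in the siChst7 libraries at day 0, against 0.269, 0.728 and 0.428 CPM in the siControl libraries. At day 1 Fam180a had 29.1, 33.1 and 30.6 CPM with siChst7, against 18.5, 17.5 and 18.1 CPM with siControl. At day 3 Fam180a had 32.0, 27.0 and 32.8 CPM with siChst7, against 19.0, 20.0 and 18.8 CPM with siControl. Fam180a was low at day 0 in both arms, with 66 counts in all in siControl cells, and its ratios were 3.84 at day 0, 1.72 at day 1 and 1.59 at day 3. Tmed1, a cargo receptor of the early secretory pathway that overlaps Dnm2, had ratios of 1.37 at day 0, 1.27 at day 1 and 1.35 at day 3. Bola1, a mitochondrial protein, had ratios of 1.51 at day 0, 1.30 at day 1 and 1.39 at day 3. Hspa1l, a heat shock protein similar in sequence to its neighbours Hspa1a and Hspa1b, had ratios of 1.39 at day 0, 1.29 at day 1 and 1.32 at day 3. Ccdc73, which overlaps Eif3m, had ratios of 1.252 at day 0, 1.72 at day 1 and 1.79 at day 3. Eif3m was far more abundant at 143 CPM and had ratios of 0.886, 1.04 and 1.59. In all, 8 of the 46 overlap another protein-coding gene of the table, and whether the counting used strand is not given in the sources used here.

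**Figure D2:**
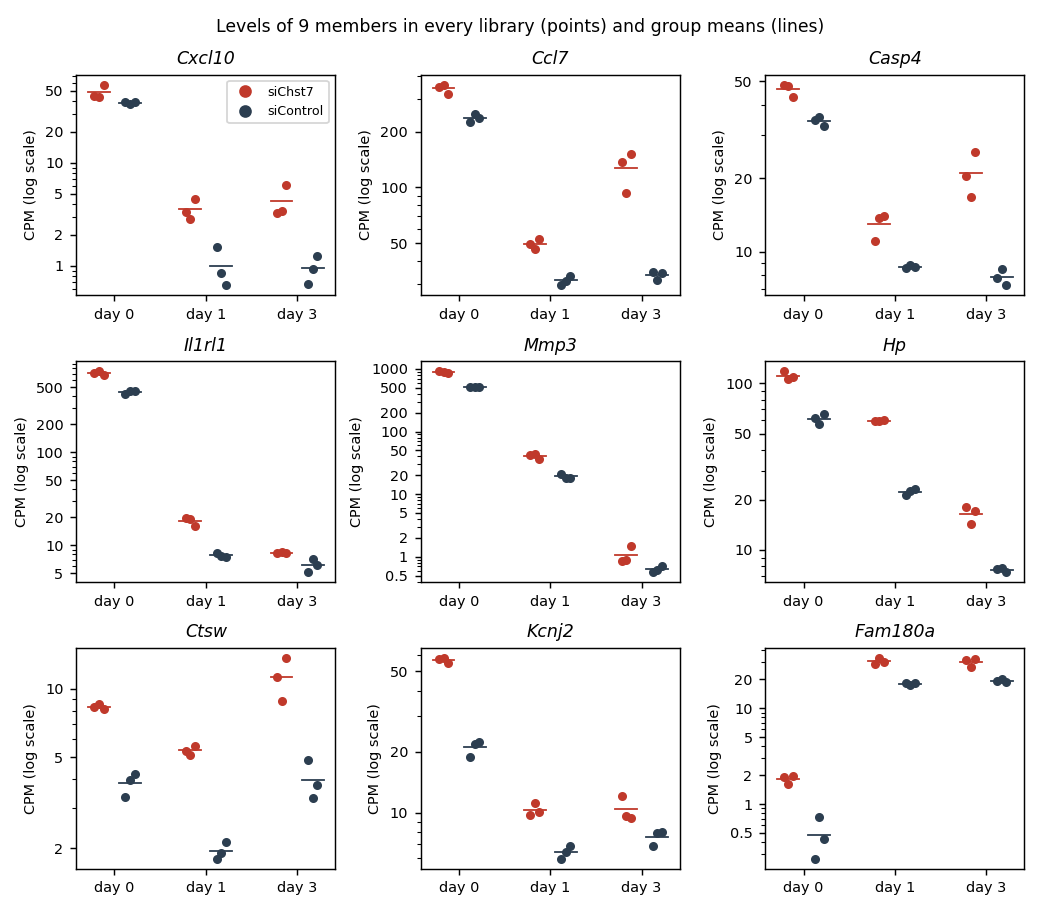
Levels of 9 of the genes in CPM (log axis) by day, with each siChst7 library left of the siControl libraries, points for libraries and lines for group means. Mmp3, Il1rl1 and Cxcl10 are far lower at days 1 and 3 than at day 0 in both arms, Fam180a is far higher, and at day 3 Ccl7 lies at 93.7 to 151 CPM with siChst7, against 31.8 to 34.8 CPM with siControl.

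The course of the same genes in control cells was then examined, a contrast that the rule did not use as such, although siControl levels are the divisors of its ratios. Most of the 46 were lower at day 1 than at day 0. In siControl cells at day 1 against day 0, edgeR called 38 of the 46 lower and 4 higher, with a median log2 fold change of -1.29, where 30.8% of all 13802 genes were called lower and 29.5% higher with a median of 0.00. At day 3 against day 0, 33 were called lower and 2 higher, with a median of -1.19, where 39.5% of all genes were called lower and 33.9% higher with a median of -0.05. With scaling by library totals, 57.8% of all calls of day 3 against day 0 were higher, where 46.2% were with the main scaling. At day 3 against day 1, 14 were called lower and 13 higher, where 32.3% of all genes were called lower and 22.8% higher, and 65% of all calls were higher with library totals, where 41.4% were with the main scaling. A gene with a low level at some days can only have reached the mean of 2 CPM through the other days, and 18 of the 46 had a group mean below 2 CPM. Among the 28 with at least 2 CPM in every group, 23 were called lower at day 1 against day 0, where 34.1% of the 10507 genes with such levels were, and 21 at day 3 against day 0, where 45% were.

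The lowest log2 fold changes at day 3 against day 0 were those of Mmp3, U90926, Ccbe1, Il1rl1, Cxcl10 and Fabp4. Mmp3 reached a log2 fold change of -9.79 ± 0.11 (SE, adjusted p = 2.8e-25) in siControl cells at day 3 against day 0. Ccbe1 changed by -6.82 ± 0.12 (SE, adjusted p = 3.09e-22) and Il1rl1 by -6.30 ± 0.09 (SE, adjusted p = 5.83e-24). U90926 had the second lowest value, at -8.96 ± 0.28 (SE, adjusted p = 7.43e-18), on only 4 counts at day 3. This SE understates the uncertainty. Alternative fits gave -12.45 to -8.33, and day 3 siChst7 against siControl on the same 4 counts had an SE of 0.7. Cxcl10 changed by -5.46 ± 0.23 (SE, adjusted p = 1.65e-15) and Fabp4 by -4.72 ± 0.19 (SE, adjusted p = 8.52e-16). Much of this was already present at day 1, when Il1rl1 was at -5.83 ± 0.09 and Cxcl10 at -5.26 ± 0.23, while Mmp3 fell further at day 3 against day 1, at -5.06 ± 0.13 (SE, adjusted p = 2.9e-18). Fam180a took the opposite course, with 5.23 ± 0.17 (SE, adjusted p = 1.92e-17) at day 1 and 5.18 ± 0.17 (SE, adjusted p = 1.38e-17) at day 3 against day 0. Spint1 was the other gene called higher at day 3, at 0.33 ± 0.13 (SE, adjusted p = 0.031), a call lost without any 1 of 4 siControl libraries (day 0 replicates 2 and 3, and day 3 replicates 1 and 2), with adjusted p of 0.0816, 0.108, 0.0909 and 0.138. Tmed1 was called higher at day 1, at 0.28 ± 0.06 (SE, adjusted p = 0.000176). Adcy7 was also called higher at day 1, at 0.39 ± 0.14 (SE, adjusted p = 0.0224), a call lost without any 1 of 4 siControl libraries, with adjusted p of 0.0546 to 0.0995. Postn fell at day 1, at -2.24 ± 0.17 (SE, adjusted p = 1.76e-10), and was higher again at day 3 against day 1, by 1.71 ± 0.18 (SE, adjusted p = 3.46e-08). Gsta4 and Gstt1 also fell at day 1 and were higher again, with 1.16 ± 0.22 (SE, adjusted p = 9.76e-05) and 1.40 ± 0.18 (SE, adjusted p = 7.92e-07) at day 3 against day 1. The day 3 calls of Nt5e, Hspa1l, Tmed1 and Snord104 against day 0, at -0.16 to -0.50, were lost under some scalings or without 1 library.

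**Figure D3:**
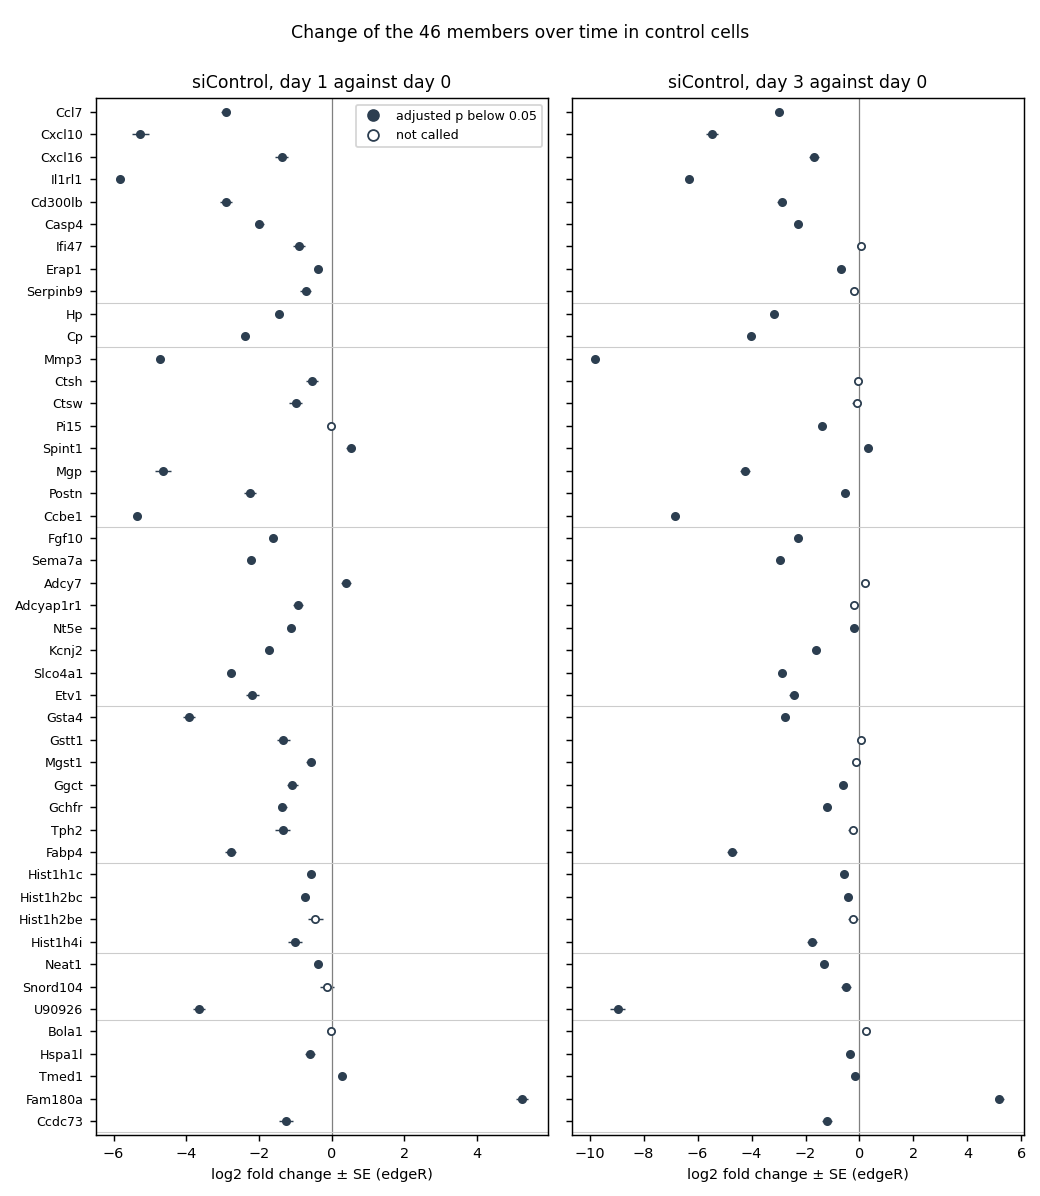
edgeR log2 fold changes with SE of the 46 genes in siControl cells at day 1 and day 3 against day 0, with filled points for an adjusted p below 0.05 and grey lines between kinds of gene. 38 genes are called lower at day 1 and 33 at day 3, down to -9.79 for Mmp3, and Fam180a stands alone at 5.23 and 5.18.

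Whether the siChst7 difference itself changed between days was tested by the interaction of siRNA and day. The spread was estimated over all 6 groups together, so it can understate that of the more variable day 3 siChst7 libraries. The rule set a lower bound at each day and not the order of the days. Its conditions used the same libraries, so the p-values and shares of the 46 are not free of that choice. At day 3 compared with day 0, 9 of the 46 had a larger siChst7 log2 fold change and 3 a smaller one, where 20.7% of all genes were called higher and 18.1% lower. The 9 are 19.6% of the 46, a share near that of all genes, and the 3 are 6.52%. Without day 3 siChst7 replicate 2, 18 were called higher and 3 lower. With library totals 7 were called higher and 6 lower, and 35.7% of the calls over all genes were higher, where 53.3% were with the main scaling. At day 1 compared with day 0, 6 were called higher and 2 lower, where 6.2% of all genes were called higher and 5.5% lower, and with library totals 30.2% of all calls were higher, where 53% were with the main scaling. At day 3 compared with day 1, 6 were called higher and 2 lower, where 15.3% and 13.1% of all genes were.

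Of the 9 genes with a larger difference at day 3 than at day 0, 4 were immune genes. Immune genes made up 9 of the 46. The kinds of gene were chosen after the values were seen, so nothing is read from this count, which was not tested. Cxcl10 gained by a log2 value of 1.87 ± 0.33 (SE, adjusted p = 0.000121) at day 3 compared with day 0, and by 1.54 ± 0.33 (SE, adjusted p = 0.00347) at day 1 compared with day 0. Ccl7 gained by 1.51 ± 0.16 (SE, adjusted p = 5.1e-07) at day 3 compared with day 0, and most of that lay between day 1 and day 3, at 1.32 ± 0.17 (SE, adjusted p = 3.12e-05). Casp4 gained by 1.08 ± 0.16 (SE, adjusted p = 2.75e-05) at day 3 compared with day 0, and by 0.87 ± 0.18 (SE, adjusted p = 0.00137) compared with day 1. For Ifi47 the gain at day 3 compared with day 0 was 0.82 ± 0.21 (SE, adjusted p = 0.00316), and compared with day 1 it was 0.75 ± 0.23 (SE, adjusted p = 0.0184), a call lost without day 3 siChst7 replicate 1 (adjusted p = 0.0593). Snord104 gained by 1.24 ± 0.25 (SE, adjusted p = 0.000466) and Neat1 by 0.50 ± 0.12 (SE, adjusted p = 0.00192) at day 3 compared with day 0. Hp gained by 0.37 ± 0.11 (SE, adjusted p = 0.0138), which was lost without day 3 siChst7 replicate 1 or 3 (adjusted p = 0.0596 and 0.057). Mgp gained by 0.75 ± 0.29 (SE, adjusted p = 0.0426), a call lost in 7 of the single-library omissions, with an adjusted p of up to 0.231, without day 3 siChst7 replicate 1. U90926 gained by 2.14 ± 0.72 (SE, adjusted p = 0.0216), but rests on 4 siControl counts at day 3 and was lost without day 3 siControl replicate 2 (adjusted p = 0.109), day 3 siControl replicate 1 or day 3 siChst7 replicate 3.

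Kcnj2 and Fam180a had smaller differences at days 1 and 3 than at day 0. Kcnj2 changed by -0.88 ± 0.13 (SE, adjusted p = 2.7e-05) at day 3 and by -0.67 ± 0.14 (SE, adjusted p = 0.002) at day 1, both compared with day 0. Fam180a changed by -1.16 ± 0.25 (SE, adjusted p = 0.00105) at day 3 and by -1.08 ± 0.25 (SE, adjusted p = 0.00637) at day 1, and its day 0 level was low in both arms. Hist1h1c was also called lower at day 3, at -0.24 ± 0.09 (SE, adjusted p = 0.0287), and the call was lost in 4 of the single-library omissions, with adjusted p of 0.0518 to 0.0731. The differences of Il1rl1 and Sema7a were largest at day 1. Il1rl1 gained by 0.64 ± 0.11 (SE, adjusted p = 0.000327) at day 1 compared with day 0 and changed by -0.79 ± 0.14 (SE, adjusted p = 0.00027) at day 3 compared with day 1. Sema7a gained by 0.60 ± 0.12 (SE, adjusted p = 0.0013) and then changed by -0.60 ± 0.14 (SE, adjusted p = 0.00273). Hp and Neat1 were called higher at day 1 compared with day 0 as well, at 0.63 ± 0.10 (SE, adjusted p = 0.000184) and 0.55 ± 0.12 (SE, adjusted p = 0.00267). Mmp3 gained by 0.33 ± 0.09 (SE, adjusted p = 0.0224) at day 1, a call lost in 5 of the single-library omissions, with adjusted p of 0.0521 to 0.0838. Mgst1 and U90926 were called higher at day 3 compared with day 1, at 0.49 ± 0.18 (SE, adjusted p = 0.0397) and 2.09 ± 0.74 (SE, adjusted p = 0.0386), and both calls were lost in several single-library omissions, with adjusted p up to 0.121 and 0.158. For the remaining genes no change of the difference between days was called.

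**Figure D4:**
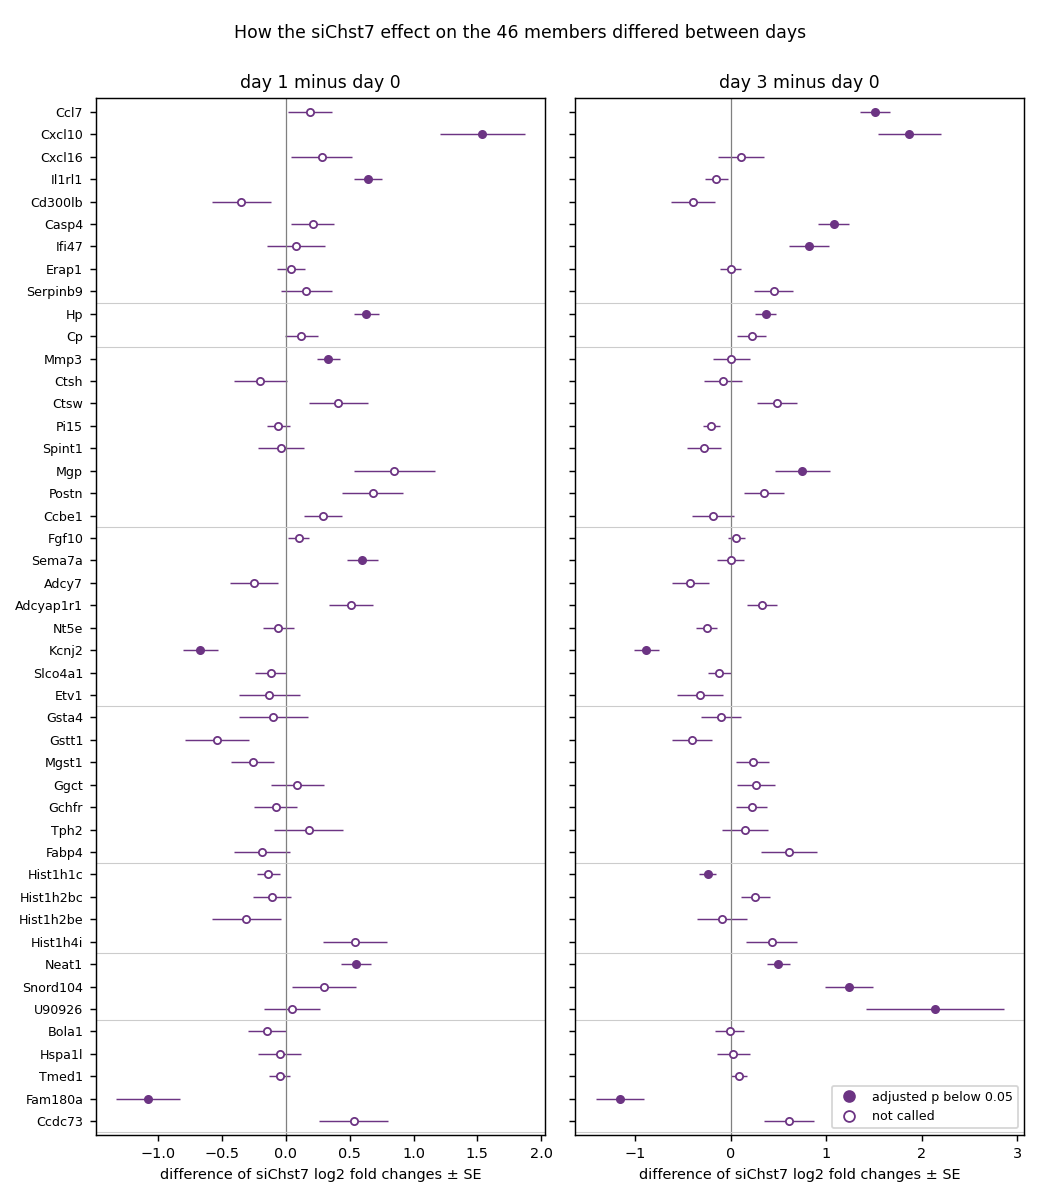
Difference between days of the siChst7 against siControl log2 fold change, with SE, for the 46 genes, at day 1 minus day 0 and day 3 minus day 0, with filled points for an adjusted p below 0.05. U90926 (2.14, wide error), Cxcl10 (1.87), Ccl7 (1.51), Snord104 (1.24) and Casp4 (1.08) stand to the right at day 3, and Fam180a (-1.16) and Kcnj2 (-0.88) to the left.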

How the data were processed

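Whole-number read counts per gene were deposited as one table with gene lengths for 18 libraries. Per the submitters' processing notes, HISAT2, Subread, featureCounts, DESeq2 and the mm10 build were used, with settings not given in the sources used here. Poly(A) libraries were prepared, per the labels' protocols. Levels are counts per 1000000 of each library total (CPM). Tests used the edgeR 4.0.16 quasi-likelihood fit with its standard expression filter (13802 genes), TMM scaling, 6 groups and no covariate (12 residual degrees of freedom), with Benjamini-Hochberg adjustment over all genes and a threshold of 0.05. R 4.3.3, limma 3.58.1 and Python 3.11.15 were used. The fit and the rule were tested on simulated data. The genes, lists and kinds were chosen with earlier results of these data known, and the kinds after the values were seen. Genes described by name were those with the largest smallest-day ratios, the highest levels, the largest called changes over time or between days, the list genes, and those beside the threshold. Library-wise values and roles of the others were added. The 27 pathway and 10 marker or quality lists were written from general knowledge with those results known. Only lists holding a member, or set beside one, are given. Alternatives were DESeq2 1.42.0, other scalings and filters, other rule thresholds, a replicate block, fits of the compared libraries and omission of each library. Promoters came from RefSeq (GRCm38.p6). Gene names in the table were matched by symbol, older histone symbols by synonym. Precision is limited by counting where levels are near 1 CPM. For large fold changes at such levels the SE given can understate this limit.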

Additional observations from a re-analysis of the deposited data

Results flagged for a closer look

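These genes are singled out because the siChst7 against siControl log2 fold change differed between days by the edgeR interaction test. Each value is the later fold change minus the earlier one. The rule chose the genes from the same libraries, so these tests are not free of that choice. At day 3 compared with day 0 the difference was larger for U90926 (2.14), Cxcl10 (1.87), Ccl7 (1.51), Snord104 (1.24), Casp4 (1.08), Ifi47 (0.82), Mgp (0.75), Neat1 (0.50) and Hp (0.37). It was smaller for Fam180a (-1.16), Kcnj2 (-0.88) and Hist1h1c (-0.24). At day 1 compared with day 0 it was larger for Cxcl10 (1.54), Il1rl1 (0.64), Hp (0.63), Sema7a (0.60), Neat1 (0.55) and Mmp3 (0.33), and smaller for Fam180a (-1.08) and Kcnj2 (-0.67). At day 3 compared with day 1 it was larger for U90926 (2.09), Ccl7 (1.32), Snord104 (0.94), Casp4 (0.87), Ifi47 (0.75) and Mgst1 (0.49), and smaller for Il1rl1 (-0.79) and Sema7a (-0.60). Calls at day 3 compared with day 0 were lost in some single-library omissions for U90926, Mgp, Hp and Hist1h1c. So were that of Mmp3 at day 1 and those of U90926, Ifi47 and Mgst1 at day 3 compared with day 1. U90926 rests on 4 siControl counts at day 3. Snord104 is 73 bases long and overlaps Gm36220, so its level in poly(A) libraries is uncertain. Rn45s took more of the counts in the day 3 siChst7 libraries than in the siControl ones, shorter genes were relatively higher there, and the part of both in the day 3 values was not tested.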

How the results depend on the processing

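The rule found 13 genes with a ratio of at least 1.5, 207 with a ratio of at least 1.1 and 74 when overlap was allowed, against 46. Scaling of the totals by TMM gave 47 genes, of which 41 were shared, and Ccdc73, Cp, Cxcl10, Ifi47 and Neat1 were lost. Over all genes at day 1, 3924 were called in a fit of the compared libraries alone, against 2426. At day 3 such a fit called 4683, against 6165. At day 3 compared with day 1, the unfiltered fit called 13 interactions, against 8. Over the omissions of 1 library each, the rule found 44 to 53 genes. The counts of the 46 called were then 41 to 43, 25 to 27 and 31 to 35 over time in siControl cells (day 1 against day 0, day 3 against day 1, day 3 against day 0), and 7 to 9, 6 to 11 and 10 to 21 for the interactions of the same days. Over all genes the siChst7 calls were 2952 to 3375 at day 0, 1805 to 1917 at day 1 and 5104 to 7124 at day 3. The cause of these differences was not tested. None of 132 called results of single genes over time or between days changed sign under the alternatives run for them, and 18 lost their call under at least 1. Same-numbered replicates did not deviate together: 9 correlations of their deviations lay between -0.02 and 0.06, none over 0.1, and 5 of the 9 were a library's best. With the replicate block the time contrasts called 42, 28 and 36 of the genes, the interactions 9, 7 and 11, and all genes 3657, 2303 and 6024 at days 0, 1 and 3. With libraries paired by number in the rule, 55 genes were found. Of single calls, Mgst1 (adjusted p = 0.0515) and Mgp (0.0547) were lost with the block. Depth limits the 18 genes with a group mean below 2 CPM, U90926 above all.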
